A study of Homo sapiens with 4 samples.

Results

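MYC and the proteins that share its partner MAX were read on the arrays together with MLXIP and a pair of its target genes, TXNIP and ARRDC4. The members were the 10 genes MYC, MAX, MXD1, MXD3, MXD4, MXI1, MNT, MLXIP, TXNIP and ARRDC4, taken by symbol, with every probe set annotated to them. They had 24 probe sets, of the 54613 tested, and 9 of the 10 stand among 19775 genes that had a probe set to themselves. A probe set is a group of short probes that together read a transcript, mostly near its 3' end. The 3 probe sets of MXD4 are also annotated to the microRNA gene MIR4800, so MXD4 has no probe set to itself and the symbols do not separate these transcripts.

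The cells were Jurkat, a human T-cell acute lymphoblastic leukemia line. In the siLEF1 group they had received 100 nM of a LEF1 siRNA pool, and in the siNT group 100 nM of a non-targeting siRNA pool, both with the same transfection reagent. RNA was taken after 24 h, from 2 samples per group that the labels call biological replicates, so every value rests on 1 cell line and 2 arrays per group. The question was which genes depend on LEF1, a transcription factor of Wnt signaling, and MYC is a known target of that pathway.

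MYC is a transcription factor that can bind DNA only when paired with MAX. The MYC-MAX pair binds E-boxes, short palindromic DNA elements, and activates genes for growth, ribosome production and metabolism. MXD1, MXI1, MXD3, MXD4 and MNT also pair with MAX, bind the same elements and recruit the SIN3 corepressor with histone deacetylases, so that they oppose MYC. MLXIP, also called MondoA, pairs with MLX and activates TXNIP and ARRDC4 when glucose phosphates accumulate. TXNIP binds thioredoxin and lowers glucose uptake, and ARRDC4 is a related alpha-arrestin that also lowers glucose uptake. In T-cell leukemia, MYC is a main target of Notch signaling.

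The promoters of TXNIP and ARRDC4 are shown because both genes had their lower signals in siLEF1 cells and because MLXIP acts on them through E-box-like elements. Of the 10 genes, 9 (all but MYC) had promoter entries in the RefSeq table (GRCh38.p14), 13 in all. Each entry runs from 250 bases before a transcription start to 50 bases after it. Below are the 250 bases before 1 of the starts of TXNIP (chr1:145996580-145996829, minus strand) and before the start of ARRDC4 (chr15:97960453-97960702, plus strand), 5′ to 3′. Capitals mark matches to CACGTG, the E-box, or to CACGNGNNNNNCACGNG, a pair of E-box-like elements, both searched on both strands.
TXNIP: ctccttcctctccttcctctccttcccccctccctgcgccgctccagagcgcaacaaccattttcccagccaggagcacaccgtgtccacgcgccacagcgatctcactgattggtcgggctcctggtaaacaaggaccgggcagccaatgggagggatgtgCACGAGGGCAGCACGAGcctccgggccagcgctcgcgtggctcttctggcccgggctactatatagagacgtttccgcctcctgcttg
ARRDC4: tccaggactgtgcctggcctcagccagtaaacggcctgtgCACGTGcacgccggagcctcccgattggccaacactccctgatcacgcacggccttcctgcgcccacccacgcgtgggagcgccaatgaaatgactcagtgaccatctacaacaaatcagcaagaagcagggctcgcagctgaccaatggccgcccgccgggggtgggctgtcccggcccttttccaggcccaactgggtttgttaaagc

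In TXNIP the paired form matched once, at positions -88 to -72 from the start (chr1:145996651-145996667), and CACGTG did not match. In ARRDC4 CACGTG matched once, at positions -210 to -205 (chr15:97960493-97960498), with no match of the paired form. The E-box occurred in 7.26% of all 35116 promoter entries of 300 bases, and the paired form in 0.057%, that is in 20 entries. Single E-boxes were also found for MXD4 and MNT. The letters CTTTGNT, the core bound by LEF1 and the TCF factors, were found in 1 of the 3 MXI1 entries and in none of the other 12 entries of these genes, against 15.4% of all entries. These matches are descriptions of the reference sequence, and binding was not measured.

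None of the 24 probe sets passed the study's thresholds, an adjusted p under 0.05 from limma and a fold change over 2. The study applied them to an F-statistic over siLEF1, siNT and non-transfected cells. Here they were applied to siLEF1 against siNT alone. Among all probe sets 0.183% were called lower and 0.0238% higher in siLEF1 cells. At an unadjusted p under 0.05, 7 of the 24 were lower (8.79% of all probe sets) and 4 were higher (6.85% of all). The signals were over 2-fold lower in 5 of the 24, 3 of TXNIP and 2 of MXD1, whatever the p (2.34% of all). Both siLEF1 arrays lay under both siNT arrays in 14 probe sets (21.2% of all) and above them in 7 (27.4% of all). Probe sets of 1 gene share a transcript, so these counts are not counts of independent genes, and the genes were chosen with earlier results of these arrays known. In value, MYC, MLXIP, MXD3 and MNT were higher in siLEF1 cells, while TXNIP, ARRDC4, MXD1, MXI1 and MAX were lower in every probe set and MXD4 was mixed. A dim probe set each of MLXIP and MNT turned to below 0 when housekeeping genes set the centre of the arrays, and a dim one of MXD1 turned to above 0 without siNT replicate 2.

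**Figure D1:**
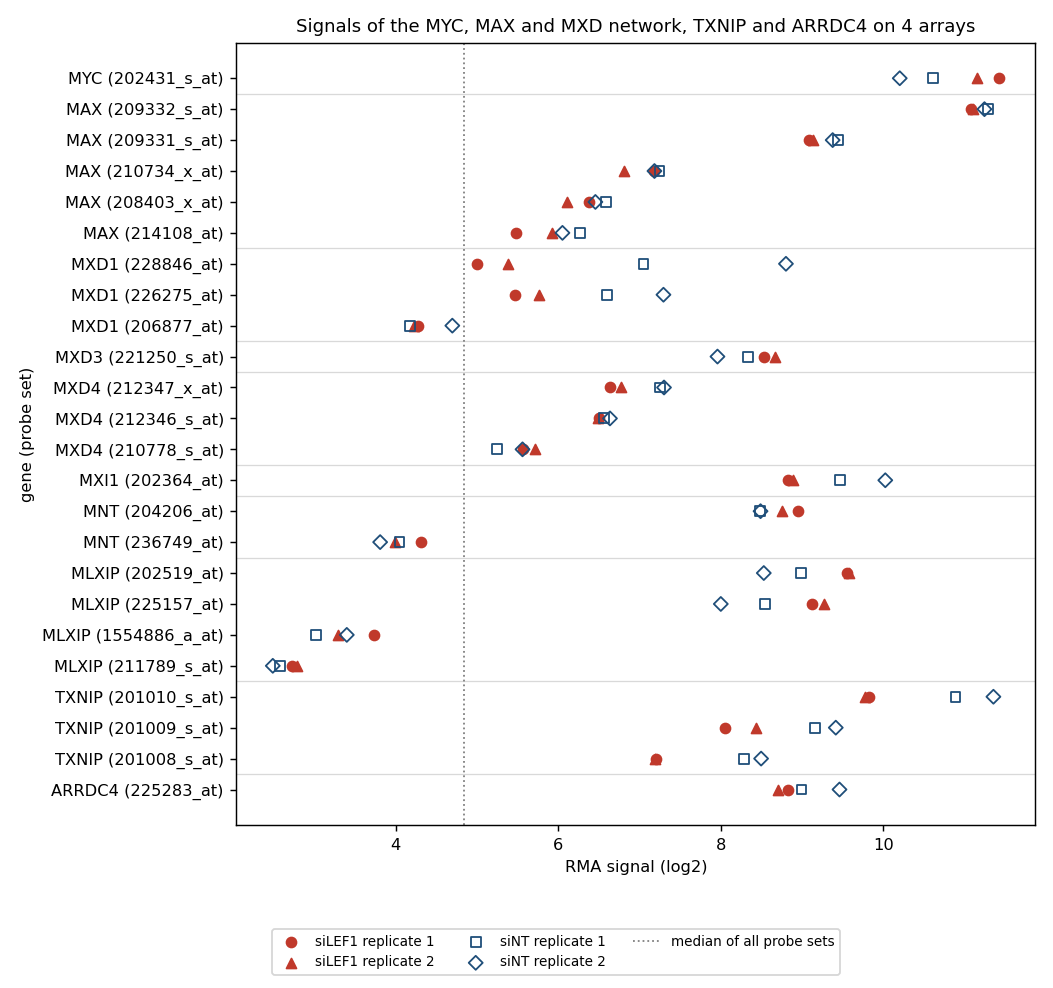
Log2 RMA signal (horizontal axis) of each of the 24 probe sets (rows, brightest first within a gene) on the 4 arrays, with filled circles and triangles for siLEF1 replicates 1 and 2, open squares and diamonds for siNT replicates 1 and 2, and a dotted line at the median of all probe sets. In the 3 TXNIP rows and the upper 2 MXD1 rows both siLEF1 points lie left of both siNT points, and in the MYC row and the upper 2 MLXIP rows they lie right of them.

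A few facts of the arrays bear on all values. The siLEF1 replicates correlated across probe sets at Pearson's r = 0.995 and the siNT replicates at r = 0.990, and siNT replicate 2 was the farther from the siLEF1 arrays (r = 0.979 and 0.980, against 0.988 and 0.991 for siNT replicate 1). The signal at the 5' end of ACTB minus that at its 3' end, a sign of RNA integrity, was -1.08 and -1.55 in siLEF1 cells, against -1.80 and -1.95 in siNT cells, as log2 differences, and its part in the values below was not tested. LEF1, the siRNA target, gave signals of 11.24 and 11.56 in siLEF1 cells, against 12.30 and 11.92 in siNT cells in its brightest probe set, with a log2 fold change of -0.71 (limma adjusted p = 0.191). Of 8 T-cell markers 7 lay above the median of every array, and of 14 markers of B, myeloid, erythroid, epithelial and stromal cells 4 did. The summed linear signal of the T-cell markers was 14800 and 15311 in siLEF1 cells, against 14275 and 10938 in siNT cells, lowest in siNT replicate 2, and the part of this in the results was not tested. That of the 14 others was 755 and 741 in siLEF1 cells, against 798 and 811 in siNT cells. In RNA of whole cultures, fewer expressing cells and less RNA per cell cannot be told apart.

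TXNIP (chromosome 1, 145992435 to 145996579) was 2.06-fold to 2.50-fold lower in siLEF1 cells across its 3 probe sets. The brightest, 201010_s_at, gave log2 signals of 9.82 and 9.78 in siLEF1 cells, against 10.89 and 11.35 in siNT cells. The next, 201009_s_at, had 8.05 and 8.44 in siLEF1 cells, against 9.16 and 9.41 in siNT cells. The dimmest, 201008_s_at, had 7.20 and 7.19 in siLEF1 cells, against 8.29 and 8.50 in siNT cells. In each of the 3 both siLEF1 arrays lay under both siNT arrays, and the gap between the groups was wider than the gap between replicates of a group. The log2 fold change was -1.32 (SE, standard error, 0.20, limma adjusted p = 0.0753) in the brightest. It was -1.04 (SE 0.19, adjusted p = 0.101) in the next and -1.20 (SE 0.16, adjusted p = 0.0597) in the dimmest, the smallest adjusted p among the 24. TXNIP stood apart from both siNT arrays, since the siLEF1 mean minus siNT replicate 1 was -1.09, -0.91 and -1.09 and minus siNT replicate 2 was -1.56, -1.17 and -1.30. The brightest probe set passed with an intensity trend (adjusted p = 0.0480) and with 1 probe set per gene (0.0435). All 3 passed with the arrays centred on housekeeping genes, a centre set mostly by the gene PGK1. Without siNT replicate 1 the brightest and the dimmest passed (adjusted p = 0.0406 and 0.0428 from limma). None of the 3 passed without siNT replicate 2 (adjusted p = 0.163, 0.302 and 0.160 from the brightest to the dimmest, limma), without either siLEF1 array (0.550 to 0.731), without variance moderation (0.598 to 0.608) or after a filter on dim probe sets (0.0742 to 0.0863).

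ARRDC4 (chromosome 15, 97960703 to 97973833), the other target of MLXIP, was read by 1 probe set. The signals reached 8.82 and 8.71 in siLEF1 cells, against 8.99 and 9.46 in siNT cells. Both siLEF1 arrays lay under both siNT arrays, but siNT replicate 1 was nearer to the siLEF1 arrays than to siNT replicate 2. The log2 fold change was -0.46 (SE 0.20, 95% interval -0.94 to 0.02, limma adjusted p = 0.336), and against siNT replicate 1 alone the difference was -0.23.

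MLXIP (chromosome 12, 122078756 to 122147344), the activator of these targets, went the other way in value. Its brightest probe set, 202519_at, gave signals of 9.55 and 9.57 in siLEF1 cells, against 8.99 and 8.53 in siNT cells. In 225157_at they were 9.12 and 9.27 in siLEF1 cells, against 8.54 and 8.00 in siNT cells. Both siLEF1 arrays lay above both siNT arrays in this pair of probe sets, with siNT replicate 2 the lowest. The log2 fold changes were 0.80 (SE 0.19, adjusted p = 0.151) and 0.93 (SE 0.21, limma adjusted p = 0.141). Without siNT replicate 1 both passed, at 1.03 (adjusted p = 0.0498) and 1.20 (limma adjusted p = 0.0470). Without siNT replicate 2 they were 0.57 and 0.66 (limma adjusted p = 0.316 and 0.302), and without either siLEF1 array adjusted p was 0.581 to 0.738, so neither passed there. The other 2 MLXIP probe sets lay under the median of every array, with log2 fold changes of 0.30 and 0.23. MLX, the DNA-binding partner of MLXIP, had a log2 fold change of 0.04.

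MYC, the activator of the network, gave signals of 11.42 and 11.15 in siLEF1 cells, against 10.61 and 10.20 in siNT cells in its single probe set, 202431_s_at. Both siLEF1 arrays lay above both siNT arrays, and the gap between the nearest arrays of the groups exceeded the gap within either group. The log2 fold change was 0.88, a 1.84-fold higher signal (SE 0.20, 95% interval 0.39 to 1.36, limma adjusted p = 0.139), and did not pass. The difference was 0.67 against siNT replicate 1 and 1.08 against siNT replicate 2. Over 11 alternative fits the log2 fold change of MYC was 0.58 to 1.08, and MYC passed in none. A filter on dim probe sets, another variance model or a replicate block leaves this value as it is. Leaving out 1 array cannot reverse groups that do not overlap. Only other centring could have changed the direction, and it gave 0.88 with array medians and 0.58 with housekeeping genes.

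MAX, the partner that MYC and the MXD proteins need, was read by 5 probe sets. The brightest, 209332_s_at, gave signals of 11.08 and 11.11 in siLEF1 cells, against 11.28 and 11.24 in siNT cells. In all 5 both siLEF1 arrays lay under both siNT arrays, by small amounts. The log2 fold changes ran from -0.46 to -0.17, with adjusted p from 0.342 to 0.633 (limma). The 95% interval of the brightest was -0.52 to 0.18, so a change of 2-fold lies outside it. In MAX siNT replicate 2 minus replicate 1 was -0.21 to -0.04, less in size than in MYC or MXD1.

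MXD1 (chromosome 2, 69915109 to 69942945), which encodes a repressor that is induced as blood cells mature, had the widest difference of the network in 1 of its 3 probe sets. The probe set 228846_at gave signals of 5.01 and 5.38 in siLEF1 cells, against 7.05 and 8.80 in siNT cells. In 226275_at they were 5.47 and 5.77 in siLEF1 cells, against 6.60 and 7.29 in siNT cells. The siLEF1 arrays lay under the siNT arrays in both, and the siNT replicates of 228846_at differed by 1.75 between themselves. The log2 fold changes were -2.73 (SE 0.52, adjusted p = 0.106) and -1.33 (SE 0.26, limma adjusted p = 0.108). Against siNT replicate 1 alone they were -1.86 and -0.98, and without that array -3.61 and -1.68, which passed (adjusted p = 0.0328 and 0.0437 from limma). Without siNT replicate 2 neither did (0.137 and 0.249), nor without either siLEF1 array (0.564 to 0.735). The third MXD1 probe set, 206877_at, lay under the median of every array, had overlapping groups and a log2 fold change of -0.19.

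MXI1 (chromosome 10, 110207605 to 110287365), a close relative of MXD1 in sequence and role, gave signals of 8.83 and 8.89 in siLEF1 cells, against 9.47 and 10.02 in siNT cells. Both siLEF1 arrays lay under both siNT arrays. The log2 fold change was -0.89 (SE 0.21, limma adjusted p = 0.150), with -0.61 against siNT replicate 1 and -1.17 against siNT replicate 2. Without siNT replicate 1 MXI1 passed (limma adjusted p = 0.0456), and without siNT replicate 2 it did not (0.302), nor without either siLEF1 array (0.738 and 0.580).

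The remaining repressors showed smaller differences. MXD3, which is known from S phase cells, gave signals of 8.53 and 8.66 in siLEF1 cells, against 8.33 and 7.96 in siNT cells, with a log2 fold change of 0.45 (limma adjusted p = 0.311). MNT, a broadly expressed repressor, gave signals of 8.95 and 8.75 in siLEF1 cells, against 8.48 and 8.49 in siNT cells in its brighter probe set, with a log2 fold change of 0.36 (limma adjusted p = 0.336). The siNT replicates of MNT were nearly equal, so its difference was 0.36 against either of them. The probe sets of MXD4 and MIR4800 differed among themselves, with log2 fold changes of -0.57 (adjusted p = 0.171), -0.10 (0.801) and 0.24 (0.569 from limma). In the first of these the signals were 6.64 and 6.77 in siLEF1 cells, against 7.25 and 7.30 in siNT cells, without overlap. Within the repressors, then, MXD1 and MXI1 were lower in value, MXD3 and MNT higher and MXD4 mixed, and differences between these genes were not tested.

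**Figure D2:**
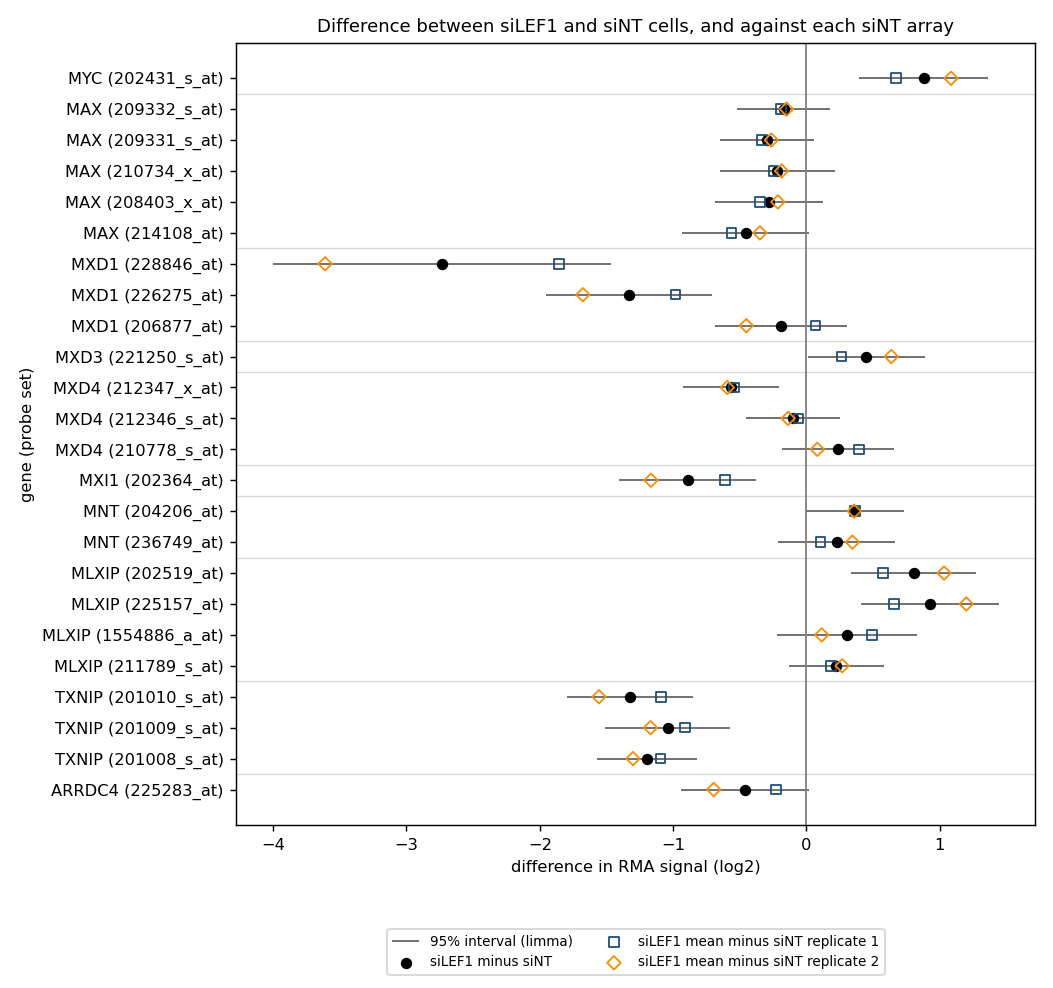
Log2 RMA signal of siLEF1 minus siNT (horizontal axis) for each of the 24 probe sets (rows), as a black point with the 95% interval from limma, beside the siLEF1 mean minus siNT replicate 1 (open square) and minus siNT replicate 2 (open diamond). The square lies nearer to 0 than the diamond for MYC, MXI1, TXNIP, ARRDC4 and 228846_at of MXD1 (-1.86 against -3.61), while for MAX the square is the farther one.

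In 21 probe sets of the network the groups did not overlap. In 14 of these (66.7%) siNT replicate 2 was the control array farther from siLEF1, against 68.0% over all probe sets. This held for 0 of the 5 MAX probe sets, whose differences were small. By brightest probe set it held for 8 of the 10 network genes (80%), against 69.9% of all genes without overlap. A further fit centred each array on the median signal of 13 housekeeping genes. That median was the signal of PGK1 on both siLEF1 arrays and siNT replicate 1, and that of YWHAZ on siNT replicate 2. PGK1 had a log2 fold change of 0.31. The 13 genes had a median of 0.09, from -0.73 for GUSB to 0.68 for HPRT1. With this centring the median of all log2 fold changes was -0.26 in place of 0.04, and those of the network moved by the same amount. MYC was then at 0.58 and the bright MLXIP probe sets at 0.50 and 0.63, while 6 network probe sets were called lower, namely those of TXNIP, the brighter 2 of MXD1 and that of MXI1.

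Genes that MYC is known to induce were higher in value almost throughout. Of 30 listed, 26 were measured, each by its brightest probe set, and 25 of these had a log2 fold change above 0, with a median of 0.38 and a range of -0.11 to 0.98. The median of all 19775 genes was 0.02, with which the list medians below also compare. Among the 2316 genes with a mean log2 signal of at least 10 it was 0.03, and 54.7% were above 0. None of the 26 passed the thresholds. At an unadjusted p under 0.05 (limma) 11 of the 26 were higher and 0 lower, against 7% of all genes higher and 11.5% lower. Among the genes with a mean log2 signal of at least 10 these shares were 10.4% and 8.12%. In 87% of the listed genes without overlap siNT replicate 2 was the farther control, against 83.4% of such bright genes. TERT, the catalytic subunit of telomerase, gave signals of 7.09 and 7.12 in siLEF1 cells, against 6.36 and 5.88 in siNT cells (log2 fold change 0.98, limma adjusted p = 0.114). UBTF, a factor of ribosomal RNA transcription, had a log2 fold change of 0.85, SRM, which makes spermidine, one of 0.69, and the mitochondrial chaperonin HSPE1 one of 0.49. The median was 0.23 without siNT replicate 2, 0.53 without siNT replicate 1 and 0.08 with centring on housekeeping genes, where that of all probe sets was -0.26. The list was chosen with earlier results of these arrays known, and its genes are not independent of one another.

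Of 11 genes known to be repressed by MYC, all were measured, 7 had a log2 fold change below 0 and the median was -0.35. At an unadjusted p under 0.05 there were 4 lower and 0 higher (limma), against 11.5% of all genes lower and 7% higher, and none passed. GADD45A, a growth arrest gene, gave signals of 9.10 and 8.91 in siLEF1 cells, against 9.86 and 10.87 in siNT cells, with a log2 fold change of -1.36 (limma adjusted p = 0.146), -0.86 against siNT replicate 1 and -1.86 against siNT replicate 2. The cyclin-dependent kinase inhibitors CDKN1B and CDKN1A had log2 fold changes of -0.86 and -0.56. THBS1, an inhibitor of blood vessel growth, had one of -1.18, with the signal under the array median on 3 of 4 arrays. With all probe sets of these genes the median was -0.10.

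Of the other arrestin family genes and the ubiquitin ligases they bind, 10 of 12 were measured, with a median log2 fold change of 0.12, which was -0.18 with centring on housekeeping genes and 0.0052 without siNT replicate 2. ARRDC3, an alpha-arrestin related to TXNIP and ARRDC4, gave signals of 7.41 and 7.43 in siLEF1 cells, against 9.11 and 10.48 in siNT cells. This was a log2 fold change of -2.38 (SE 0.41, limma adjusted p = 0.0926), with the siLEF1 replicates nearly equal and the siNT replicates apart, and it was -1.69 against siNT replicate 1 and -3.06 against siNT replicate 2. The ligase ITCH had a log2 fold change of -1.36 (limma adjusted p = 0.0956), while ARRB1, a beta-arrestin, and the ligase WWP1 had values of 0.69 and 0.40. In this list 2 genes were lower and 3 higher at an unadjusted p under 0.05 (limma), against 11.5% and 7% of all genes, and none passed.

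In the thioredoxin system, to which the partner of TXNIP belongs, 9 of 10 measured genes had a log2 fold change above 0, against 53.5% of all genes and 54.7% of those with a mean log2 signal of at least 10, and the median was 0.26. It was -0.04 with centring on the median signal of housekeeping genes, so the sign of this median depends on that choice of scaling. The peroxiredoxins PRDX4, PRDX3 and PRDX2 had values of 0.52, 0.43 and 0.44 and thioredoxin itself, TXN, one of 0.36, none of which passed. At an unadjusted p under 0.05 (limma) 3 genes were higher, against 7% of all genes and 10.4% of the bright ones, and 0 lower. The thioredoxin list also counted GLRX, a glutaredoxin, and NLRP3, an inflammasome protein, both above 0. Among 9 measured genes of glucose entry and its first steps 1 was lower and 3 higher at that p, against 11.5% and 7% of all genes. Their median was 0.13, and it was -0.17 with centring on housekeeping genes, 0.07 without siNT replicate 2 and 0.23 without siNT replicate 1. The glucose list also counted PKLR, a pyruvate kinase of the last step of glycolysis, whose signal lay under the median of every array. The glucose transporter SLC2A3 gave signals of 7.19 and 7.21 in siLEF1 cells, against 8.19 and 8.61 in siNT cells (log2 fold change -1.20, limma adjusted p = 0.0825). The enzymes GPI and HK2 had log2 fold changes of 0.70 and 0.56 and the transporter SLC2A1 one of 0.40.

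**Figure D3:**
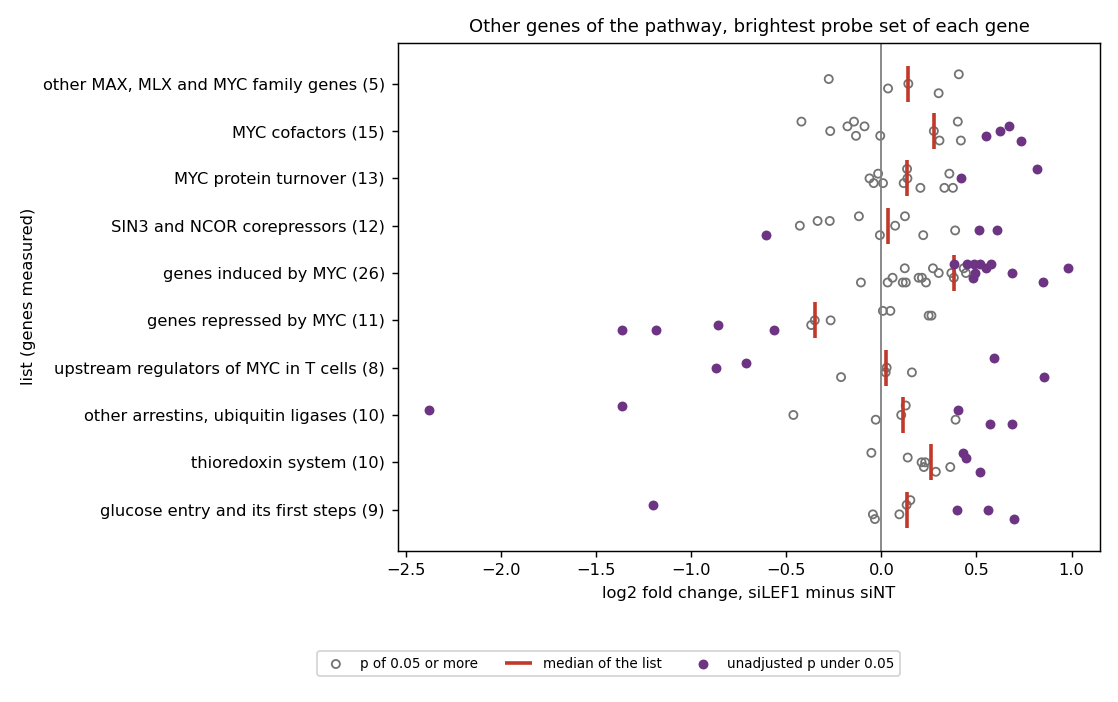
Log2 fold change, siLEF1 minus siNT (horizontal axis), of the genes of 10 lists (rows, with the number measured), each gene by its brightest probe set, with filled points at an unadjusted p under 0.05 and a red bar at the median of the list. The row of genes induced by MYC has 25 of 26 points above 0, and the lowest point of all is ARRDC3 at -2.38.

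The other partners and regulators gave no call either. MGA, a MAX partner, and MYCN, a relative of MYC, had log2 fold changes of 0.30 and 0.41, MYCL one of -0.28 and MLXIPL, the liver relative of MLXIP, one of 0.14. Of 15 measured MYC cofactors 4 were higher at an unadjusted p under 0.05 (limma) and 0 lower, against 7% and 11.5% of all genes, with a median of 0.28 that was 0.15 without siNT replicate 2 and -0.02 with centring on housekeeping genes. Those 4 were the acetyltransferase KAT2A at 0.62, the chromatin remodeler EP400 at 0.73, the histone methylation cofactor WDR5 at 0.67 and the host cell factor HCFC1 at 0.55. Among 13 measured genes of MYC protein turnover the median was 0.14, or -0.16 with that centring. SKP2, a ubiquitin ligase subunit that targets MYC, had a log2 fold change of 0.82 (limma adjusted p = 0.135), the deubiquitinase USP7 one of 0.42, the cullin scaffold CUL1 one of 0.36 and the ligase STUB1 one of 0.33. The SIN3 and NCOR corepressors, through which the MXD proteins and related repressors act, had a median of 0.03 over 12 genes, or -0.27 with that centring, with the histone-binding RBBP7 at 0.61, the SIN3 subunits SUDS3 at 0.51 and ARID4B at -0.61 and the deacetylase HDAC1 at 0.39. Of 8 measured upstream regulators of MYC, 2 were lower and 2 higher at an unadjusted p under 0.05 (limma), against 11.5% and 7% of all genes, and 1 of the lower ones was LEF1, the target of the siRNA. The receptor NOTCH1 gave signals of 8.52 and 8.61 in siLEF1 cells, against 8.00 and 7.43 in siNT cells (log2 fold change 0.85, limma adjusted p = 0.165), the transcription factor MYB had a log2 fold change of 0.59 and HES1, a direct Notch target, one of -0.87. Against siNT replicate 1 and siNT replicate 2 taken singly, MYB was at 0.30 and 0.89 and HES1 at -0.32 and -1.42.

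The genes whose signals followed those of MYC most closely over the 4 arrays were IGFBP2, CEP70, EMB, HSDL2 and SPATA13. Likeness was the root mean square distance between signals centred on each gene's own mean, over 10323 genes with a mean log2 signal of at least 6, and it ran from 0.030 for IGFBP2 to 0.062 for SPATA13 on the log2 scale. For TXNIP they were ARG2, ID1, RNPC3, C3AR1 and LOC728392, with distances of 0.029 to 0.054. These distances describe 4 arrays and say nothing of shared control.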

How the data were processed

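Total RNA of Jurkat cells was hybridized to 4 Affymetrix HG-U133 Plus 2.0 arrays, 2 per group, with groups taken from the sample labels. Signals were obtained by the authors with Expression Console, 1.1 by their processing notes, using RMA. What was deposited is 1 log2 value for each probe set on each array. RMA equalizes the distributions of the arrays, so a shift of all transcripts would not be seen, and 2 arrays per group limit the precision. It is not stated that replicates came from separate cultures beyond the word biological in the labels.

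The log2 fold change was siLEF1 minus siNT. Moderated 2-sided tests were made with lmFit and eBayes of limma 3.58.1 (R 4.3.3) on 54613 probe sets, without the 62 controls, and Benjamini-Hochberg adjustment covered all of these. Calls needed a fold change over 2 together with an adjusted p under 0.05. Residual degrees of freedom were 2, and moderation added 4.30. The procedure was tested on simulated data. Symbols are those of the platform annotation, brought up to date through Entrez numbers. Promoter sequences came from RefSeq (GRCh38.p14).

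The members, lists and tests were chosen with earlier results of these data known. Named genes were all 10 members, up to 4 genes with the smallest p in each list, and the 5 genes most like MYC and most like TXNIP. MLX, outside this rule, was named as the partner of MLXIP after its values were seen. YWHAZ, PKLR, GLRX and NLRP3, also outside it, were named for their place in their lists. Alternatives were a filter on dim probe sets, other variance models, the replicate number as a block, other centring, other choices of probe sets, other fold thresholds and each array left out.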

Additional observations from a re-analysis of the deposited data

How the results depend on the processing

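Main counts were 100 lower and 13 higher among all probe sets, and 0 in the network and in the other listed genes. Filtering at a mean log2 signal of 6 gave 4 lower and 1 higher among all probe sets. An intensity trend gave 130 lower and 20 higher, with 1 network probe set lower, of TXNIP. Without variance moderation 0 were called, with 4393 at an unadjusted p under 0.05 (limma's linear fit). One probe set per gene gave 171 lower and 29 higher, with 1 in the network lower, the brightest of TXNIP. Centring on the median signal of housekeeping genes, mostly that of PGK1, gave 1999 lower and 33 higher. Called lower there were 6 network probe sets and 7 other listed genes. Leaving out 1 array, the calls ran from 0 to 1287 lower and from 0 to 595 higher among all probe sets. They ran from 0 to 5 lower and 0 to 2 higher in the network, and from 0 to 5 lower and 0 to 3 higher in the other lists. Only the fit without siNT replicate 1 made calls, and the other 3 had 3688 to 6232 probe sets at an unadjusted p under 0.05. The lone array is there taken to vary like the other group.

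With the replicate block 977 were lower and 120 higher, with 5 network probe sets lower (3 of TXNIP and 2 of MXD1) and 5 other listed genes. The labels do not say that equal numbers mark a shared culture or day, and deviations of replicate 1 from the group means correlated at -0.15 between the groups. A crossed replicate block, added after the data were seen, gave 763 lower and 159 higher, with 3 network probe sets and 4 other listed genes lower.

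Centring on array medians, leaving out probe sets ending in _x_at or _s_at, and other fold thresholds kept these counts within 1.5 times. Leaving out those probe sets cut the network from 24 to 11. It removed all probe sets of MYC and TXNIP, so the 0 network calls there do not cover these genes. All probe sets with an adjusted p under 0.05 (limma) were over 2-fold, so the lower fold thresholds could not change the counts. Of the log2 fold changes of the network, 20 of 24 kept their sign in every fit run. Only other centring could change a sign, or an array left out where the groups overlap. The count therefore says nothing of the filters, variance models and blocks. With housekeeping centring, 210778_s_at of MXD4 was at -0.060, 236749_at of MNT at -0.073 and 211789_s_at of MLXIP at -0.073. LEF1 itself was then at -1.01 (limma adjusted p = 0.0402, with 0.191 before this centring). For 206877_at of MXD1, leaving out 1 array gave -0.45 to 0.068, the highest without siNT replicate 2. The cause of these shifts was not tested.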
